A study of Rattus norvegicus with 12 samples.

Results

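The cluster of miR-221 and miR-222 was followed in small RNA libraries of rat aorta. Its members were taken as every row of the deposited table whose name, without the species prefix rno- and the arm suffix, is miR-221 or miR-222. This gave 4 of 641 rows, namely rno-miR-221-3p, rno-miR-221-5p, rno-miR-222-3p and rno-miR-222-5p (the prefix is left out from here on). The rule goes by name alone, though the cluster was proposed with earlier results of these data known. The aortas came from female rats of the spontaneously hypertensive strain (SHR), an inbred line that develops high blood pressure. There were 6 samples whose treatment is given as EWH and 6 controls given saline. Peptides from egg white and their relation to blood pressure are the subject of the series title, and the labels used here give no age, dose or length of treatment. They do not say whether each sample is a separate animal, so the p-values below reflect sample-to-sample spread, part or all of which may be technical. Whole aorta was sampled, so fewer cells of a type and less RNA per cell cannot be told apart.

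A microRNA (miRNA) is a short RNA cut from a hairpin precursor. One arm, the guide, is loaded into the silencing complex and pairs with messenger RNAs mainly through its seed, bases 2 to 8 from the 5′ end, while the other arm is mostly degraded. MiR-221-3p and miR-222-3p are the guides of neighbouring hairpins and share a seed. In vascular smooth muscle they are known to be raised by platelet-derived growth factor and in injured rat arteries, and to favour proliferation by repressing the cell cycle inhibitors p27Kip1 and p57Kip2. In endothelial cells they are known to repress the receptor Kit and to limit vessel growth.

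The mature sequences, from RefSeq (GRCr8), are shown 5′ to 3′ because the shared seed defines the family. All 4 members matched an entry, and capitals mark the seed.
miR-221-3p: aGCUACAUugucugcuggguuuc
miR-222-3p: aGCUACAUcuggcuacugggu
miR-221-5p: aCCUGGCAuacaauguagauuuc
miR-222-5p: gGCUCAGUagccaguguagau

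The guides were identical over their first 8 bases and at 11 of the 21 positions that could be compared from the 5′ end. Among 693 mature rat miRNAs in the RefSeq table, these 2 were the only ones with the seed GCUACAU. The 5p arms had different seeds, CCUGGCA and GCUCAGU, each carried by no other entry, and matched at 5 of 21 positions. Because the guides part after base 8, full-length reads of one differ from those of the other at 10 of the compared positions.

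The hairpins are shown next, with both mature arms in capitals, since the arm balance below refers to them. In the GRCr8 annotation Mir222 and Mir221 follow each other on the + strand of chromosome X, with no other annotated gene between them. The submitters name another build (rn6) for the data, so no coordinates are given.
miR-221: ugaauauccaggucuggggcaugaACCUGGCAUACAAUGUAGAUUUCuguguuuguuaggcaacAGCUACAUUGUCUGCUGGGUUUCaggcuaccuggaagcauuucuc
miR-222: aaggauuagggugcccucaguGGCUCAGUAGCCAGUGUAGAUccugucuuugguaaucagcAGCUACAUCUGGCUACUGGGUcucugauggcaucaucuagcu

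Values are in reads-per-million (rpm) units, that is, reads of a miRNA divided by a total of its library. These totals ran from 23887799 to 24772944 reads, 76.4% to 80.6% of them in listed rows, and 1 read was worth 0.0404 to 0.0419 rpm. No molecular identifiers are described, so intervals and limits from read counts cover counting error only. The smooth muscle miRNA miR-143-3p held 42.3% to 54.1% of listed reads and so weighs on the scale of all others. The summed smooth muscle markers (both arms of miR-143 and miR-145) lay between 331968 and 428677 rpm in EWH and between 347013 and 426858 rpm in control. The endothelial miR-126a arms summed to 4264 to 6913 rpm in EWH and 3290 to 12305 rpm in control, so markers of smooth muscle and of endothelium were both present.

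MiR-221-3p was the main product of the cluster. Its lowest, median and highest levels were 164, 308 and 375 rpm in EWH, against 301, 365 and 488 rpm in control. The groups overlapped, with 3 of 6 EWH libraries below the lowest control and 3 of 6 controls above the highest EWH library. The groups did not overlap for 1.65% of all tested miRNAs, and they overlapped for each tested member of the cluster. The mean was 293 ± 71.9 rpm in EWH and 375 ± 73.1 rpm in control (SD, n = 6 each), so that the EWH mean was 78.2% of the control mean. On the log2(rpm + 1) scale the difference was −0.38 (SE 0.19, 95% interval −0.80 to 0.05), or 0.771-fold with an interval of 0.575 to 1.03. It did not pass limma over 303 tested miRNAs (Benjamini-Hochberg adjusted p = 0.262, unadjusted p = 0.0761).

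MiR-222-3p, the guide of the neighbouring hairpin, was less abundant. Its lowest, median and highest levels were 36.9, 53.3 and 69.2 rpm in EWH, against 52.5, 62.2 and 89.3 rpm in control. Here too 3 of 6 EWH libraries lay below the lowest control, while 2 controls lay above the highest EWH library. The mean was 53.8 ± 12.6 rpm in EWH and 68.1 ± 16.8 rpm in control (SD, n = 6 each). The difference was −0.33 log2 (SE 0.19, 95% interval −0.75 to 0.09) and did not pass limma (Benjamini-Hochberg adjusted p = 0.331, unadjusted p = 0.112).

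MiR-221-5p, the passenger arm, was far scarcer, at lowest, median and highest levels of 4.60, 7.02 and 8.50 rpm in EWH and 6.87, 8.40 and 12.2 rpm in control. The overlap between the groups was again partial, with 3 EWH libraries below all controls and 2 controls above all EWH libraries. It averaged 6.85 ± 1.64 rpm in EWH and 8.86 ± 1.97 rpm in control (SD, n = 6 each). The difference of −0.33 log2 (SE 0.18, 95% interval −0.72 to 0.06) did not pass limma (Benjamini-Hochberg adjusted p = 0.289, unadjusted p = 0.0876).

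MiR-222-5p was close to absent. It had 0 reads in all 6 EWH libraries and in 5 controls, and 2 reads (0.0812 rpm) in control 1. A count of 0 allows up to 0.121 to 0.126 rpm, the worth of 3 reads, and the row did not reach the filter of 1 rpm in 6 libraries, so it was not tested and no fold is given.

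**Figure D1:**
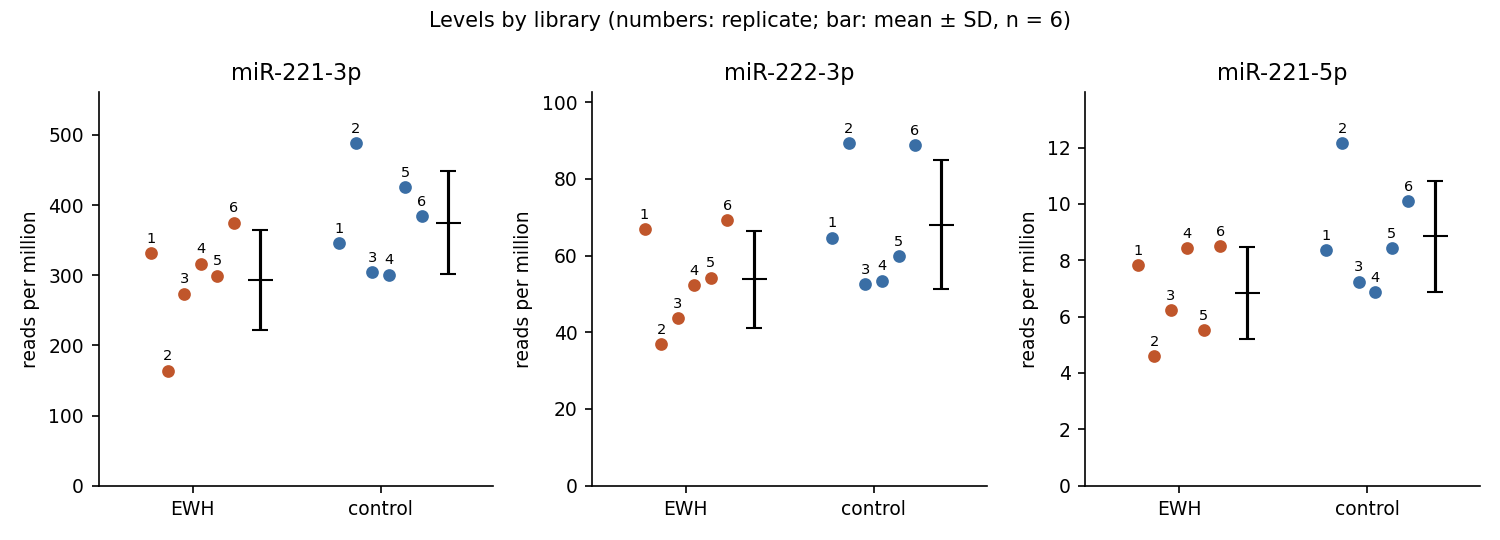
Levels in rpm (linear axes from 0) of miR-221-3p, miR-222-3p and miR-221-5p in each library of EWH and control, with replicate numbers beside the points and the mean ± SD of 6 libraries to the right. EWH 2 is the lowest and control 2 the highest library in each panel, and the remaining libraries of the groups overlap.

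The 3 tested members thus had lower means in EWH by like amounts, and none passed a threshold. The share of all tested miRNAs with a lower mean log2 value in EWH was 60.1%, with a median difference of −0.06, so a lower mean by itself was common. Of the 303, 30 had a more negative difference than miR-221-3p, 40 than miR-221-5p and 41 than miR-222-3p. Limma called none of the 303 at an adjusted p under 0.05 (0%), and 70 (23.1%) lay under an unadjusted p of 0.05, none of them a member of the cluster. With whole reads, which the values allow to be recovered, edgeR called 13.2% and DESeq2 20.8% of the tested miRNAs. Neither called a member, with Benjamini-Hochberg adjusted p = 0.207 by edgeR and 0.199 by DESeq2 for miR-221-3p, 0.260 and 0.190 for miR-221-5p, and 0.351 and 0.324 for miR-222-3p. The intervals above still include decreases of the size of the point estimates and slight increases, so these samples do not show that the levels were alike. EWH 2 weighed most on the guides, since without it the difference of miR-221-3p was −0.22 log2, and that of miR-222-3p −0.23. The limma count over all miRNAs was 24 without EWH 2, with no member among them.

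**Figure D2:**
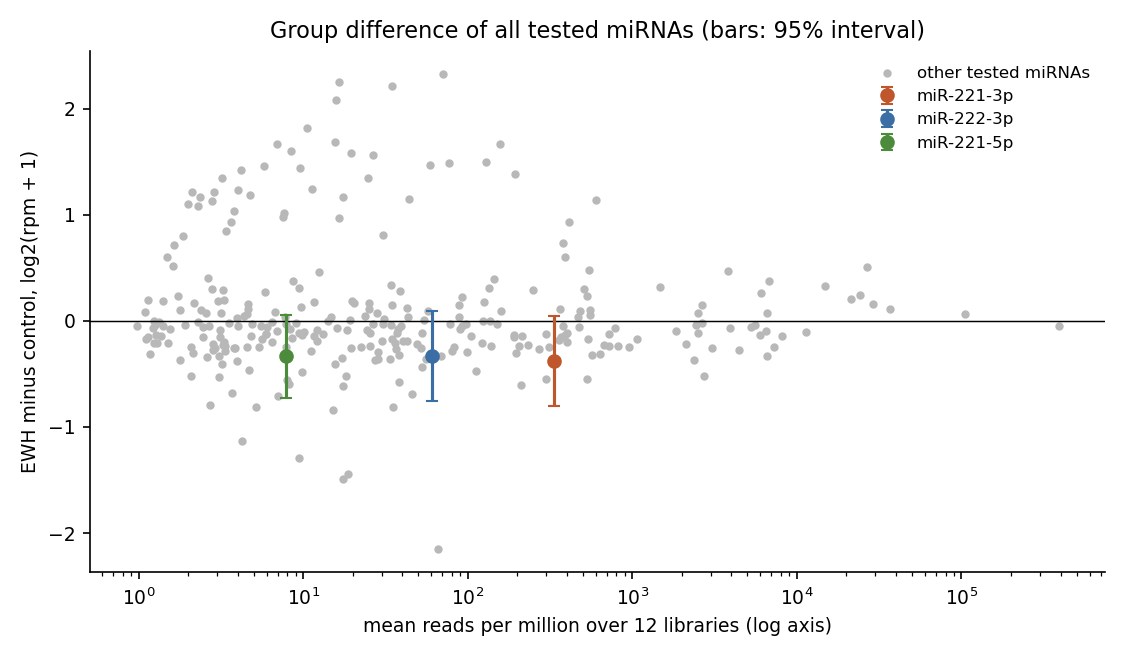
Difference EWH minus control on the log2(rpm + 1) scale (vertical) against mean rpm over 12 libraries (horizontal, log axis) for 303 tested miRNAs, with 95% limma intervals for the 3 tested members. The members lie at −0.38 (miR-221-3p), −0.33 (miR-222-3p) and −0.33 (miR-221-5p), and each interval crosses 0.

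The spread of the members within groups was near the median of the tested miRNAs. From the mean read numbers (8122 for miR-221-3p, 1483 for miR-222-3p and 191 for miR-221-5p), counting alone gives a coefficient of variation of 1.11%, 2.60% and 7.23%. The observed one was 24.5% in EWH and 19.5% in control for miR-221-3p, and 23.5% in EWH and 24.7% in control for miR-222-3p. For miR-221-5p it was 23.9% in EWH and 22.2% in control. The SD within groups on the log2 scale was 0.35 for miR-221-3p and 0.34 for miR-222-3p, next to a median of 0.33 over all tested miRNAs.

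In the order of levels miR-221-3p ranked 64th of the 641 rows by mean rpm, miR-222-3p 105th and miR-221-5p 200th. Over 12 libraries miR-221-3p averaged 334 ± 81.2 rpm (SD), between miR-24-2-5p at 356 ± 47.1 and miR-103-3p at 310.0 ± 62.2 rpm. These means lay closer together than the SDs between libraries. MiR-222-3p averaged 61.0 ± 16.0 rpm, between the epithelial miR-200b-3p at 66.1 ± 145.7 and the glial miR-338-3p at 59.1 ± 56.0 rpm. Again the means lay closer together than the SDs. MiR-221-5p at 7.85 ± 2.02 rpm had miR-144-3p (7.87 ± 4.89 rpm) and miR-132-5p (7.79 ± 2.09 rpm) beside it. Neighbours were not compared within libraries, so whether their levels differ from those of the members was not tested. The 4 members together held 0.0447% ± 0.0108 of listed reads in EWH and 0.0577% ± 0.0108 in control (SD, n = 6 each).

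The proportion between the guides did not differ between the groups beyond its spread. MiR-221-3p exceeded miR-222-3p 5.44 ± 0.68-fold in EWH and 5.61 ± 0.90-fold in control (SD, n = 6 each). Single libraries ran from 4.44 (EWH 2) to 6.26 (EWH 3) in EWH and from 4.33 (control 6) to 7.11 (control 5) in control, so the control range took in the whole EWH range. The mean log2 ratio was 2.41 ± 0.18 in EWH and 2.46 ± 0.23 in control (SD, n = 6 each). The difference of −0.04 log2 (95% permutation interval −0.31 to 0.22) was within the spread by exact permutation of the 924 possible splits, two-sided (p = 0.719). A change of one guide relative to the other beyond 0.807-fold or 1.17-fold lies outside that interval.

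The share of 5p reads differed between the hairpins. Of the miR-221 reads, 2.32% ± 0.32 came from the 5p arm in EWH and 2.31% ± 0.21 in control (SD, n = 6 each). The extremes were 1.81% in EWH 5 (exact 95% interval 1.52% to 2.15%) and 2.73% in EWH 2 (2.26% to 3.28%). Over all libraries the 5p arm made up 2.30% of 99753 miR-221 reads (exact 95% interval 2.21% to 2.39%), but 0.0112% of 17801 miR-222 reads (0.00136% to 0.0406%). The 5p arm thus made up a lower share of the sequenced reads of miR-222 than of miR-221, with intervals that lie apart but cover counting error only.

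The miR-221 arm ratio did not move with treatment beyond its spread. The 3p arm exceeded the 5p arm 42.9 ± 6.51-fold in EWH and 42.6 ± 4.30-fold in control (SD, n = 6 each). The difference of the log2 ratio was −0.04 (SE 0.12, 95% interval −0.30 to 0.22), with a limma adjusted p = 0.881 (Benjamini-Hochberg) over the 67 hairpins that had both arms tested. None of the 67 was called (0%), and 13 (19.4%) lay under an unadjusted limma p of 0.05, miR-221 not among them. By its mean log2 ratio of 5.23 miR-221 stood 8th from the top of the 67 hairpins, 24 of which had more 3p than 5p. The miR-222 ratio was not tested, since its 5p arm did not pass the filter.

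**Figure D3:**
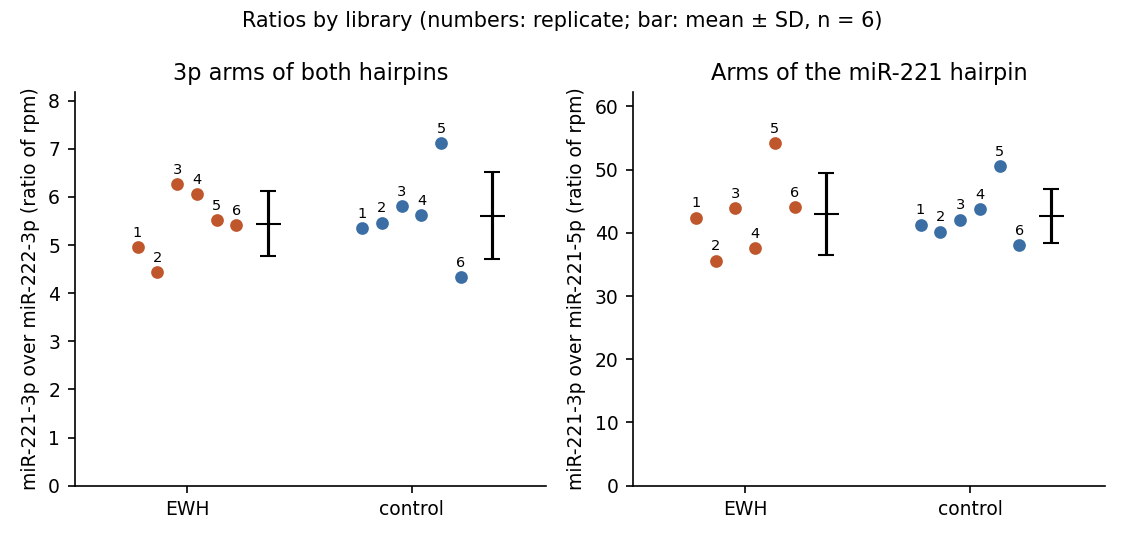
Ratio of miR-221-3p to miR-222-3p (left) and of miR-221-3p to miR-221-5p (right) from rpm values in each library, on linear axes from 0, with replicate numbers and the mean ± SD of 6 libraries. The means are 5.44 in EWH and 5.61 in control on the left, and 42.9 in EWH and 42.6 in control on the right.

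The members varied together from library to library. Over 12 libraries, log2(rpm + 1) of miR-221-3p and miR-222-3p correlated at Pearson's r = 0.86 (permutation p = 0.00014) and Spearman's rho = 0.85 (permutation p = 0.00064). The arms of miR-221 correlated at r = 0.90 (permutation p = 7.00e-05) and rho = 0.92 (permutation p = 1.00e-04). MiR-221-5p and miR-222-3p correlated at r = 0.89 (permutation p = 0.00015) and rho = 0.77 (permutation p = 0.00479). Over these 3 relations the Benjamini-Hochberg adjusted p was 0.00015 for each r and at most 0.00479 for rho. All values of a library share its total and preparation.

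EWH 2 and control 2, the libraries farthest from the median of miR-221-3p, carried part of this relation. Without both, r was 0.74 for the guides, 0.77 for the miR-221 arms and 0.76 for miR-221-5p with miR-222-3p. Within EWH the guides correlated at r = 0.90 (exact permutation p = 0.00278, adjusted 0.00833 over 3 relations) and rho = 0.94 (exact permutation p = 0.0167, adjusted 0.05). Within control they correlated at r = 0.75 (exact permutation p = 0.107) and rho = 0.77 (exact permutation p = 0.103), so within control the relation missed the threshold. The guides' r was 0.91 in EWH without EWH 2 and EWH 6, and 0.44 in control without controls 2 and 4. These values rest on few libraries and were not tested. The miR-221 arms correlated at r = 0.86 within EWH and r = 0.89 within control (exact permutation p = 0.0139 and 0.0153, adjusted 0.0208 and 0.0229). Their rho was 0.89 within EWH and 0.94 within control (exact permutation p = 0.0333 and 0.0167, adjusted 0.05 in both). Without the 2 libraries farthest from the median their r was 0.69 in EWH and 0.63 in control. MiR-221-5p and miR-222-3p missed the threshold within EWH at r = 0.79 (exact permutation p = 0.0778) and rho = 0.71 (exact permutation p = 0.136). Within control they correlated at r = 0.95 (exact permutation p = 0.00694, adjusted 0.0208) and rho = 0.89 (exact permutation p = 0.0333, adjusted 0.05). For rho, no adjusted p within a group was under 0.05.

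**Figure D4:**
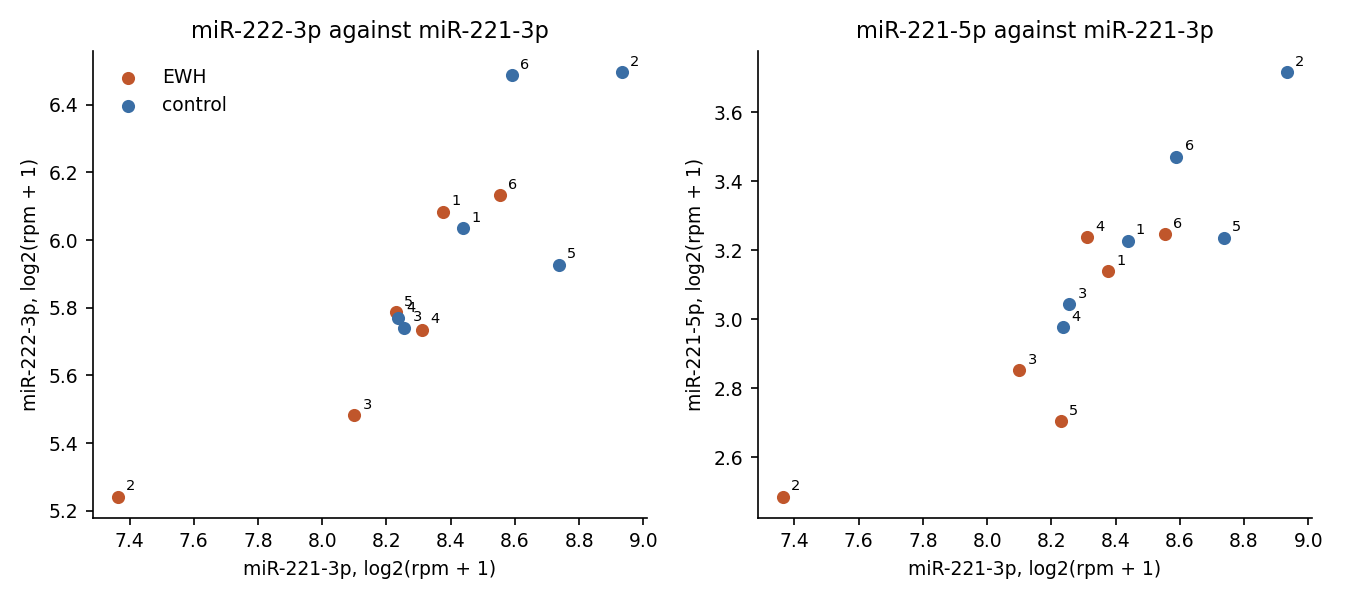
Levels of miR-222-3p (left) and miR-221-5p (right) against miR-221-3p in 12 libraries, all as log2(rpm + 1), with replicate numbers and colours for EWH and control. Points rise together, with EWH 2 at the lower left and control 2 at the upper right of both panels, and r is 0.86 on the left and 0.90 on the right.

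Set against the 302 other tested miRNAs by r with miR-221-3p, miR-221-5p ranked 1 and miR-222-3p ranked 4. For miR-222-3p, miR-221-5p ranked 2 and miR-221-3p ranked 4. Among miRNAs averaging at least 10 rpm, those most like miR-221-3p over 12 libraries were miR-29a-3p (r = 0.88), a repressor of collagens, then miR-21-5p (0.86), which is raised in injured vessels, miR-222-3p (0.86), miR-374-5p (0.86) and miR-339-5p (0.85). Most like miR-222-3p were miR-21-5p (r = 0.92), miR-29a-3p (0.89), miR-221-3p (0.86), miR-3074 (0.86) and miR-27b-3p (0.79). After removal of the group means the r of miR-222-3p with miR-21-5p was 0.91, and that of miR-221-3p with miR-29a-3p was 0.84. These are descriptions over 12 libraries that share scaling, and the miRNAs were picked for their likeness.

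EWH 2 was the lowest and control 2 the highest of all 12 libraries in the 3 tested members, and also in miR-29a-3p, miR-21-5p, miR-374-5p and miR-339-5p, which were picked for their likeness to miR-221-3p. For miR-3074 the lowest and highest libraries were control 4 and control 6, and for miR-27b-3p they were EWH 3 and control 6. MiR-21-5p read 4778 rpm in EWH 2 and 9454 rpm in control 2, and miR-29a-3p read 447 rpm in EWH 2 and 847 rpm in control 2. These libraries were alike in the share of miR-143-3p, at 53.6% of listed reads in EWH 2 and 54.1% in control 2. The endothelial markers summed to 5817 rpm in EWH 2 and 3290 rpm in control 2, and the markers of erythrocytes to 131.6 rpm in EWH 2 and 271 rpm in control 2. Leukocyte markers summed to 121 rpm in EWH 2 and 172 rpm in control 2, and those of neurons and glia to 118 and 191 rpm. Epithelial markers summed to 11.2 rpm in EWH 2 and 13.8 rpm in control 2, and skeletal and cardiac muscle markers to 185 and 168 rpm. The part of cell composition in the members' levels was not tested.

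Markers of other cell types are given here beside the members, and their relation to the members over the libraries was not tested. The 9 rows of neuron and glia markers summed to 118 to 967 rpm in EWH and 81.4 to 191 rpm in control, highest in EWH 3 and EWH 4, where miR-221-3p stood at 273 and 317 rpm. Without EWH 3 and EWH 4 together the difference of miR-221-3p was −0.40 log2 and that of miR-222-3p −0.26. The 9 epithelial rows summed to 10.1 to 25.2 rpm in EWH and 9.26 to 643 rpm in control, highest in control 6 at 643 rpm, control 5 at 242 rpm and control 4 at 87.7 rpm. MiR-222-3p read 88.8, 59.9 and 53.5 rpm in these 3 libraries, and its highest level, 89.3 rpm, was in control 2, where the epithelial rows summed to 13.8 rpm. Its difference was −0.25 log2 without control 6 and likewise −0.25 without control 2. The 6 leukocyte rows summed to 103 to 185 rpm in EWH and 87.4 to 231 rpm in control, and the 5 erythrocyte rows to 119 to 385 rpm in EWH and 80.4 to 364 rpm in control. The 6 rows of skeletal and cardiac muscle markers summed to 151 to 240 rpm in EWH and 168 to 516 rpm in control. The most abundant of these rows was miR-499-5p, at a mean of 210 rpm over 12 libraries. Of the 3 tested, miR-499-5p (−0.60 log2) and miR-133b-3p (−0.21) had lower means in EWH and miR-206-3p (0.34) a higher one. No marker row of these lists was at 0 in all libraries.

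Other miRNAs of the vessel wall gave the setting. In the list of miRNAs known from proliferating smooth muscle, miR-221 and miR-222 left out, 9 of 15 rows were tested, 6 with lower and 3 with higher means in EWH, and limma called 0 of them (background 0%). Over all tested miRNAs 60.1% had a lower mean log2 value in EWH. At an unadjusted limma p under 0.05 the list had 2 rows, beside 23.1% of all tested miRNAs. The lists were not set against the calls of edgeR and DESeq2. The median difference of the list was −0.13 log2, beside −0.06 over all tested miRNAs. Its most abundant members were miR-26a-5p at 107494 ± 8599 rpm in EWH and 102896 ± 8690 in control, miR-21-5p at 5804 ± 836 in EWH and 7380 ± 1503 in control, and miR-24-3p at 5714 ± 535 in EWH and 6270 ± 603 in control (SD, n = 6 each).

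The contractile smooth muscle list had 6 of 7 rows tested, 4 lower and 2 higher in EWH, with a median of −0.09 log2 and 0 called. MiR-143-3p, which with miR-145 maintains the contractile state, averaged 383398 ± 36932 rpm in EWH and 395202 ± 31339 rpm in control (SD, n = 6 each). MiR-145-5p averaged 1006 ± 211 rpm in EWH and 1138 ± 282 rpm in control, and miR-1-3p 807 ± 273 rpm in EWH and 394 ± 238 rpm in control (SD, n = 6 each). In the endothelial and angiogenesis list 8 of 12 rows were tested, 6 lower and 2 higher, with a median of −0.17 log2. Limma called 0 of them (background 0%), and this list had 1 row at an unadjusted limma p under 0.05. Its most abundant members were miR-10a-5p at 22815 ± 3435 rpm in EWH and 20062 ± 4515 in control, miR-126a-3p at 5214 ± 993 in EWH and 5855 ± 3259 in control, and miR-126a-5p at 44.5 ± 8.29 in EWH and 53.6 ± 18.3 in control (SD, n = 6 each).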

How the data were processed

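Per the labels' protocols, small RNA inserts of 15 to 35 nt were cut from a gel after ligation of adaptors to Trizol-extracted RNA. The submitters' processing notes name the build rn6; aligner, counter and miRNA annotation: not given in the sources used here. In the deposited table the authors give values in RPM units, although it is named for TPM: dividing by the smallest step of a library gave whole reads for 100% of values within 0.01 read.

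The 303 of 641 miRNAs that reached 1 rpm in 6 or more of the 12 libraries were compared as log2(rpm + 1), a scale that understates changes of low miRNAs, with limma 3.58.1 (trend, two-sided, R 4.3.3), Benjamini-Hochberg adjustment and a threshold of 0.05. Recovered reads were compared with edgeR 4.0.16 (quasi-likelihood) and DESeq2 1.42.0. Correlations used 100000 permutations, or all orders within a group of 6. Other alternatives were filters, pseudocounts, scalings, variance models, a replicate block and libraries left out. The procedures were tested on simulated counts whose planted changes were larger than the members' differences. Recovery of differences as small as those of the members was not examined. No pair of libraries within a group agreed within sampling noise (lowest chi-square per degree of freedom 119).

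The members and lists were chosen with earlier results of these data known. Named were the members, rows sharing their guides' seed, the 5 most alike by r, the level neighbours and miR-143-3p. The 3 most abundant members of each list and rows of the marker lists were named too.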

Additional observations from a re-analysis of the deposited data

How the results depend on the processing

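By limma, edgeR or DESeq2 with Benjamini-Hochberg adjustment, the 3 tested members kept lower means in EWH and missed the threshold under every alternative run. MiR-221-3p ran from −0.46 to −0.22 log2 (adjusted p 0.127 to 0.455, unadjusted 0.0304 to 0.161). The range was −0.44 to −0.23 for miR-221-5p (adjusted p 0.143 to 0.472, unadjusted 0.0388 to 0.188). It was −0.42 to −0.23 for miR-222-3p (adjusted p 0.188 to 0.575, unadjusted 0.0640 to 0.272). Scaled to listed reads without miR-143-3p, the unadjusted limma p was 0.0304 for miR-221-3p, 0.0409 for miR-221-5p and 0.0656 for miR-222-3p. The count of called miRNAs, 0 by limma, was 8 after quantile normalization, 1 without EWH 3 and EWH 4 together, 40 by edgeR, 63 by DESeq2 and 0 to 24 with a library left out. The log2 difference of the miR-221 arm ratio ran from −0.145 (pseudocount 5) to 0.090 (quantile normalization) over every alternative. With a library left out it ran from −0.105 to 0.024. That of the guides' ratio was −0.137 without EWH 3 and EWH 4 together, and ran from −0.115 to 0.027 with a library left out. There was no call in any of these, and the cause of the changes of sign was not tested. The guides' correlation stayed between 0.82 and 0.91 over 16 alternatives, which did not include leaving out EWH 2 and control 2 together. Without both of these libraries it was 0.74. Deviations of same-numbered samples from their group means correlated at −0.50 to 0.31. No differently numbered pairs were set beside them, so this cannot settle whether the samples pair. With the replicate number as a block, limma adjusted p was 0.413 for miR-221-3p (−0.38 log2), 0.456 for miR-221-5p, 0.397 for miR-222-3p and 0.886 for the arm ratio, the exact sign-flip p of the guides' ratio was 0.719, and 0 miRNAs were called. At a filter of 10 rpm miR-221-5p and its arm ratio gave no value, and miR-222-5p and the miR-222 arm ratio were not tested in the main setting. MiR-222-5p had 0 to 2 reads in a library, fewer than the 3 reads that a count of 0 allows.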

Other observations

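Controls 5 and 6 held the 2 extremes of the ratio of miR-221-3p to miR-222-3p among all 12 libraries, at 7.11 in control 5 and 4.33 in control 6. They were also the libraries with the most epithelial marker reads, at 242 rpm in control 5 and 643 rpm in control 6, against at most 87.7 rpm elsewhere. The miR-221 arm ratio was highest in the fifth library of each group, at 54.2 in EWH 5 and 50.5 in control 5, with 44.1 as the next highest value. These values were picked after they were seen, and no test was made.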
